A study of Mus musculus with 24 samples.

Results

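The genes described here are 7 regulators and components of the Ras switch in thymocytes: the adaptor Grb2, the exchange factors Sos1, Sos2 and Rasgrp1, the GTPase Nras, and the GTPase-activating proteins Rasa1 and Nf1. They were chosen by symbol, and every probe set listed for 1 of these symbols alone was taken, which gave 21 of the 45037 probe sets tested and 7 of the 18193 genes represented. Rasgrp1 had 4 probe sets, Sos1 had 5, Nras, Rasa1 and Nf1 had 3 each, Grb2 had 2 and Sos2 had 1.

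Transcripts were read with Affymetrix Mouse430_2 arrays in double-positive (DP) thymocytes, the CD4 and CD8 bearing immature T cells from which mature T cells are selected. The cells were sorted with antibodies to CD4 and CD8 from the thymus of 12 male Black 6J mice aged 8 weeks, rested for 2 h, and spun for 30 min onto plates that were coated with anti-CD3 or left uncoated. Antibody to CD3 engages the T cell receptor complex directly. The mice were wild type (WT), SapKO, ElkKO or lacking both genes (ElkSapKO), with 3 mice of each genotype, so that 8 groups of 3 arrays were formed and each mouse gave an untreated and a stimulated array. The names Sap and Elk were taken to mean Elk4, also called SAP-1, and Elk1. These are ETS-family ternary complex factors that bind DNA with serum response factor and are phosphorylated by ERK. The labels state neither the alleles nor whether the deletions are limited to a cell type. The series is about ternary complex factors during positive selection of T cells, and the 7 genes lie between the receptor and ERK, upstream of these factors.

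Ras proteins are membrane-bound GTPases that signal while they hold GTP. In thymocytes the receptor recruits Grb2 with Sos1 or Sos2 to the adaptor Lat, while diacylglycerol recruits Rasgrp1; both routes load Ras with GTP, and active Ras starts the Raf, MEK and ERK cascade. Rasa1 and Nf1 end the signal by speeding GTP hydrolysis. Rasgrp1 is known to be needed for positive selection of thymocytes. All of these steps act on proteins, and the arrays read only the amounts of the transcripts.

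Values are log2 signals made by RMA (robust multi-array average) and deposited by the submitters, and the number of arrays limits their precision. A signal of 1 probe set is not comparable with that of another, so levels are compared only within a probe set. Differences were tested with limma over all 45037 probe sets, and a probe set is said to be called, to have risen or to have fallen when its Benjamini-Hochberg adjusted p was under 0.05. Knockouts were compared with WT over per-mouse means, in which the 2 arrays of a mouse are averaged, and also within each state. These comparisons share the WT mice. In bulk RNA, fewer cells of a type and less RNA per cell cannot be told apart.

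Some measures of the arrays moved with the genotypes. The main Elk4 probe set read 10.25 to 10.99 in the 12 arrays of genotypes with Sap and 6.13 to 7.85 in the 12 without it. The brighter of the Elk1 probe sets read 4.69 to 5.23 in the 12 arrays with Elk and 4.03 to 4.74 in the 12 without it, which is close to background and overlapping, so it is a weak check of that label. The Actb control, read near its 3' and 5' ends, differed by 0.15 to 0.36 log2 units in the arrays with Elk and by 0.38 to 1.05 in those without it; this difference grows as RNA is shortened, and it cannot be told apart from the Elk genotype. The dap spike-in was at 8.81 to 9.66 in 16 arrays, among them all 12 without Elk, and at 6.00 to 6.60 in the other 8. Untreated cells of ElkSapKO mouse 2 gave an array that stood apart in its relative log expression, whose interquartile range was 0.78 against 0.18 to 0.38 in the other 23 arrays. It was the lowest array for 12 of the 21 probe sets, and for 18.7% of all probe sets. All 9 measured DP thymocyte markers were above the signal range of Xist, a transcript not made by normal male cells (2.80 to 5.07 over its 3 probe sets), and their summed signal was 14.59 to 15.28. In mean signal, all 6 granulocyte and all 3 erythroid markers measured were within that range, as were 5 of 7 B cell, 6 of 10 macrophage and dendritic cell, and 7 of 9 epithelial and stromal markers. The B cell sum, 11.40 to 12.46, was carried by Ighm at a mean of 11.86. The 4 mature T cell markers measured (Ccr7, S1pr1, Klf2 and Il7r) were all above that range in mean signal, and their sum was 8.37 to 9.20 in ElkSapKO against 9.56 to 11.01 in the other genotypes. Other sums overlapped between ElkSapKO and the other genotypes, and several reached further in ElkSapKO, in part on the array that stood apart. The DP sum went down to 14.59 there, against 14.92 in the others. The granulocyte sum went up to 7.82, against 7.44. The macrophage and dendritic sum went up to 9.89, against 9.38, on the array that stood apart, and to 9.62 without it. The erythroid and the epithelial and stromal sums went up to 6.07 and 8.53, against 5.69 and 8.00, on the array that stood apart. Without it they went up to 5.55 and 8.00, no further than in the other genotypes. In their deviations from the group means, untreated arrays of ElkKO mice 1 and 2 were each closer to the stimulated array of the other (r = 0.711 and 0.682) than to that of their own number (0.138 and 0.212). Values per mouse follow the numbers in the labels, and comparisons within a state do not use them.

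In mean signal over the 24 arrays, each of the 7 genes had at least 1 probe set above the range of Xist. The brightest probe sets of Rasgrp1, Rasa1 and Grb2 averaged 10.72, 9.52 and 9.45 over the 24 arrays, and those of Nras, Sos1 and Sos2 averaged 8.97, 7.98 and 7.19. Nf1 was dim in all of its probe sets, at 5.33, 4.19 and 3.75; the last 2 lay within the range of Xist, as did the mean of the first in each ElkSapKO mouse (at most 5.03). Of the 5 Sos1 probe sets, 2 also lay within that range, at 3.88 and 3.69, and 1 more at 5.14 was just above it. Thus 17 of the 21 probe sets had a mean of at least 5.

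**Figure D1:**
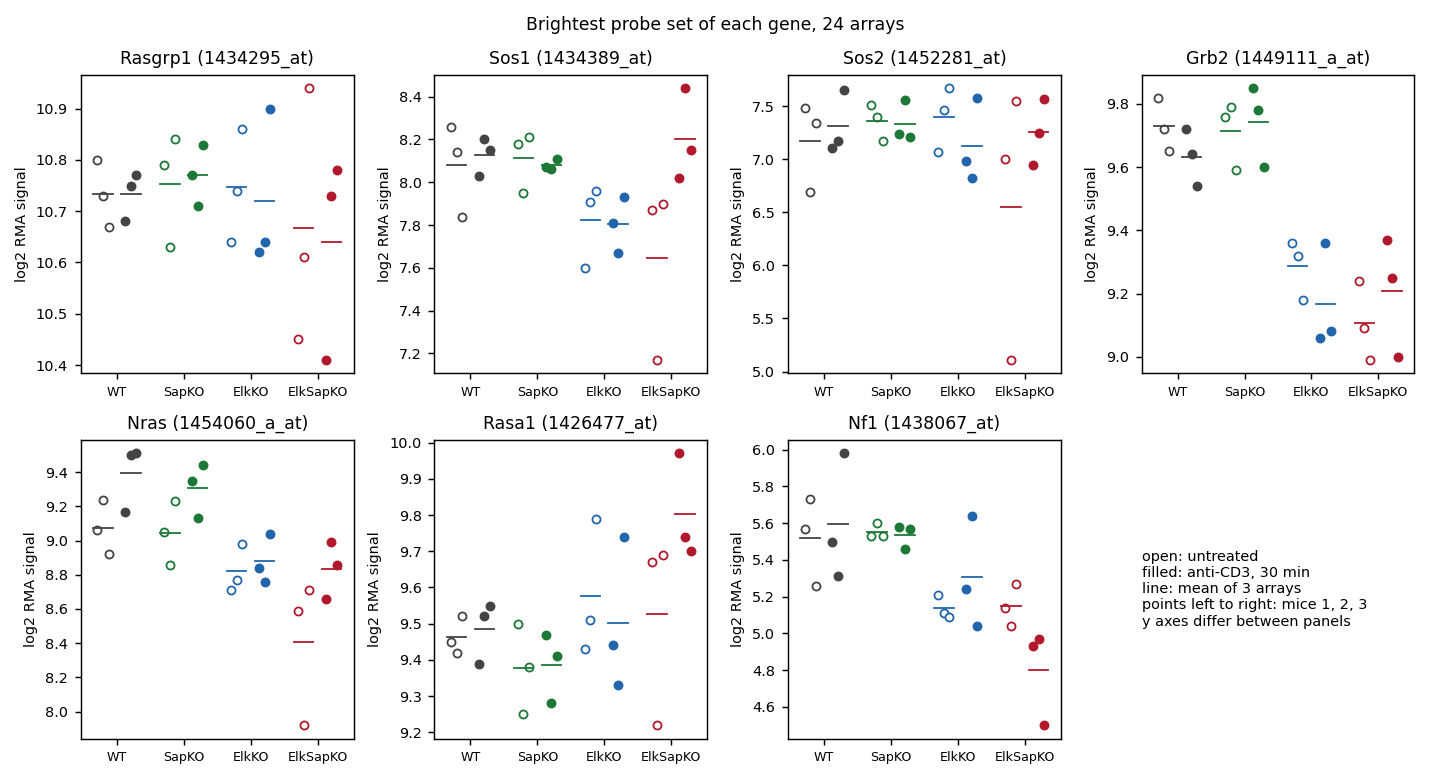
Log2 RMA signal of the brightest probe set of each of the 7 genes in the 24 arrays, by genotype and state, with open points for untreated and filled points for anti-CD3 arrays and lines for means of 3; the vertical axes differ between panels and do not start at 0. For Grb2 the 12 arrays without Elk lie at 8.99 to 9.37, below the 12 with Elk at 9.54 to 9.85, while Rasgrp1 stays between 10.41 and 10.94 throughout.

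Because the deleted factors are ETS proteins, the promoters of the 7 genes were searched for ETS-type letters in the 250 bases before the RefSeq start (build GRCm38.p6), on both strands. CCGGAA was in 3 of the 8 promoters listed for these genes, those of Sos1, Rasa1 and Nf1, against 12% of 32851 promoters of all genes. GGAAGT was in 2 of the 8, in Nf1 and in the second promoter of Grb2, against 19.7%. The joint word CCGGAAGT, which holds both, was in 1 of the 8, that of Nf1, against 2.88%. The CArG box, the motif of serum response factor, was in 0 of the 8 and in 1.47% of all promoters. The windows below show 1 match in each of the 4 genes, written 5′ to 3′ along the gene, with the matching letters in capitals; in Nf1 the match is on the opposite strand. They are shown because 3 of these genes, Grb2, Sos1 and Nf1, had probe sets called as lower in mice without Elk. Rasa1 had a match but no probe set so called. Rasgrp1 and Nras each had a probe set so called but no match to CCGGAA or GGAAGT. The windows are matches of letters, not measured binding sites.
Grb2 (chr11:115699571-115699600, minus strand, GGAAGT): cgggaaggaagaGGAAGTgtattctggcat
Sos1 (chr17:80480497-80480526, minus strand, CCGGAA): atccgcgggcagCCGGAAaacccggagcga
Rasa1 (chr13:85289524-85289553, minus strand, CCGGAA): ccggacgcgctcCCGGAAggcgcctgcgca
Nf1 (chr11:79339664-79339693, plus strand, CCGGAA): aaaggatcccacTTCCGGtggggtgtcatg
The matches begin 54 bases before the start in Grb2, 61 in Sos1, 55 in Rasa1 and 216 in Nf1.

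The first comparison asks whether 30 min of receptor engagement changes these transcripts. None of the 21 probe sets was called by limma in the response averaged over the 4 genotypes, where 1.45% of all probe sets were called. At an unadjusted p under 0.05 there were 3 of 21 probe sets, against 7.73% of all. Their median change was −0.01, and that of all probe sets was 0.00. Within single genotypes 0 of 21 were called in WT, where 0.251% of all probe sets were called, in SapKO (0.255% of all), in ElkKO (0.151%) and in ElkSapKO (0.258%). Unadjusted p values under 0.05 were found for 0 of 21 in WT, SapKO and ElkKO and for 6 of 21 in ElkSapKO. Of all probe sets 4.93%, 2.47%, 2.68% and 7.32% had such a p in these 4 genotypes. The ElkSapKO median was 0.28, against −0.01 for all probe sets, and 15 of 21 were above 0, against 47.7% of all. Without the untreated array of mouse 2 that stood apart, the median was 0.00, with 11 of 21 above 0 and 2 at an unadjusted p under 0.05. Without both arrays of that mouse it was −0.01, with 9 above 0 and 1 at such a p.

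Nras, the GTPase itself, had the largest averaged change in absolute size. In untreated WT cells Nras (1454060_a_at) read 9.06, 9.24 and 8.92 in mice 1, 2 and 3, and after anti-CD3 it read 9.17, 9.50 and 9.51. In SapKO it read 9.05, 8.86 and 9.23 untreated and 9.35, 9.13 and 9.44 stimulated. The stimulated array was the higher one in each of these 6 mice, though the groups overlapped in both genotypes. In ElkKO it read 8.71, 8.77 and 8.98 untreated and 8.84, 8.76 and 9.04 stimulated, and in ElkSapKO 8.59, 7.92 and 8.71 untreated and 8.66, 8.99 and 8.86 stimulated. The signal was thus higher after anti-CD3 in 11 of 12 mice. The ElkSapKO reading of 7.92, in the mouse with the largest change (1.06), is from the array that stood apart. The averaged difference was 0.27 ± 0.0862 (SE), or 1.20-fold, with an adjusted p of 0.206 in limma. With arrays weighted by their quality the limma adjusted p was 0.0105, at a difference of 0.26, in a fit where 5.42% of all probe sets were called. The other Nras probe sets differed by 0.17 ± 0.0821 (1422688_a_at, adjusted p = 0.629) and 0.10 ± 0.105 (1422687_at, adjusted p = 0.985).

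None of the exchange factor and adaptor probe sets was called in the averaged response. The averaged difference of the brightest probe set was −0.01 for Rasgrp1, with a 95% interval of −0.14 to 0.12, and −0.02 for Grb2, with an interval of −0.14 to 0.10. For Sos1 it was 0.14, with an interval of −0.04 to 0.31, and for Sos2 0.14, with a wider interval of −0.28 to 0.55. A dim Sos1 probe set, 1421886_at, differed by −0.20 with an interval of −0.39 to −0.01. For the GTPase-activating proteins it was 0.06 with an interval of −0.09 to 0.21 (Rasa1) and −0.03 with an interval of −0.21 to 0.15 (Nf1). For the brightest probe sets of Rasgrp1, Grb2, Rasa1 and Nf1 these intervals lie within 0.25 log2 units either way. They bound the signal of those probe sets, and that of Nf1 is close to background. Another Rasgrp1 probe set, 1431749_a_at, was lower after anti-CD3 in 9 of 12 mice and higher in 3. Its averaged difference was −0.28 to −0.13 in the 24 fits that left out 1 array, and it was called in none of them.

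**Figure D2:**
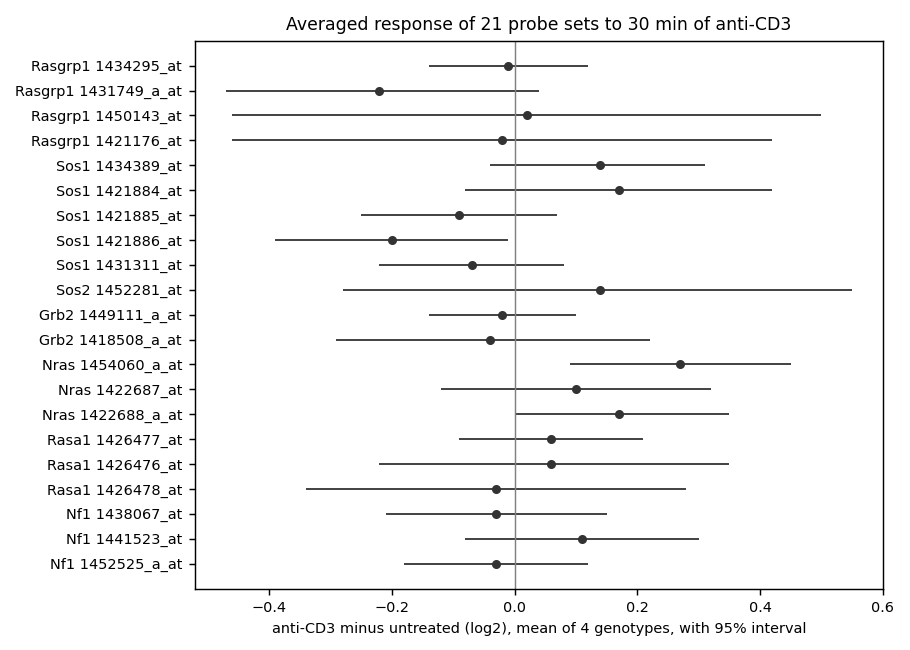
Anti-CD3 minus untreated log2 difference, averaged over the 4 genotypes, for each of the 21 probe sets, with its 95% interval from limma. The differences lie between −0.22 (Rasgrp1, 1431749_a_at) and 0.27 (Nras, 1454060_a_at), and none was called.

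The responses were next compared between genotypes. For none of the 21 probe sets was the response called as different from that of WT in SapKO, where 0.00222% of all probe sets (1 of 45037) were called, in ElkKO (0.0% of all) or in ElkSapKO (0.00222%). Unadjusted p values under 0.05 in limma numbered 0, 0 and 3 of 21, against 1.06%, 1.37% and 5.19% of all probe sets. In ElkSapKO the 3 were all higher, and the differences of response were above 0 for 17 of 21 probe sets, against 50.2% of all probe sets. Without the untreated array of ElkSapKO mouse 2 they were above 0 for 12 of 21, and 0 had an unadjusted p under 0.05. Without both arrays of that mouse they were above 0 for 15 of 21, and 1 had such a p.

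In mice without Sap alone the 7 genes showed no difference from WT that passed the test. By limma, 0 of the 21 probe sets were called in SapKO against WT over per-mouse means, where 0.12% of all probe sets were called, nor in untreated cells (0.0888% of all) or stimulated cells (0.0755%). None had an unadjusted p under 0.05 in any of these, against 2.33%, 1.73% and 3.37% of all probe sets, in that order. The median difference of the 21 was 0.03 over per-mouse means, against 0.00 for all probe sets. The 95% interval of the difference was −0.22 to 0.28 for the brightest probe set of Rasgrp1, −0.22 to 0.21 for Sos1, −0.19 to 0.28 for Grb2, −0.33 to 0.21 for Nras, −0.36 to 0.17 for Rasa1 and −0.22 to 0.19 for Nf1. For Sos2 it was wider, at −0.51 to 0.73.

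In ElkKO mice no probe set of the 7 genes was called. None of the 21 probe sets passed the test in ElkKO against WT over per-mouse means, where 0.131% of all probe sets were called, or in untreated (0.0933%) or stimulated cells (0.144%). At an unadjusted p under 0.05, however, 8 of 21 were lower and 0 higher over per-mouse means, against 13.9% of all probe sets in either direction, and the counts, again all lower, were 6 of 21 in untreated cells (8.6% of all) and 3 of 21 in stimulated cells (12.6% of all). The median difference over mice was −0.23, and that of all probe sets was 0.005. The 8 included both Grb2 probe sets, at −0.46 ± 0.107 (adjusted p = 0.112) and −0.71 ± 0.183 (adjusted p = 0.134). With arrays weighted by quality, 6 of the 21 passed the test, from Grb2, Sos1, Nras and Nf1, but so did 12.1% of all probe sets. With ElkSapKO mouse 2 left out of the shared fit, or with only the WT and ElkKO mice in the fit, 1 did. Of all probe sets 1.5% and 1.16% passed in these fits.

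Loss of both factors was accompanied by lower signal of 4 of the 7 genes. Over per-mouse means, 6 of 21 probe sets fell and 0 rose in ElkSapKO against WT; over all probe sets 5.75% fell and 2.23% rose. Both Grb2 probe sets fell, with 2 of the 5 for Sos1, 1 of 3 for Nras and 1 of 3 for Nf1. The median difference of the 21 was −0.36, against 0.05 for all. Falls were more frequent among brighter probe sets: 13.3% of all those with a mean of at least 5 fell when they were tested alone. In that fit 8 of the 17 member probe sets with such a mean fell (47.1%). The mature T cell marker sum was also lower in ElkSapKO, as given above. Some other marker sums reached further there, those of erythroid and of epithelial and stromal markers only on the array that stood apart. The part of these markers in the differences was not tested.

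Grb2 links phosphorylated adaptors to Sos. Its brighter probe set (1449111_a_at) read 9.82, 9.72 and 9.65 in untreated WT cells of mice 1, 2 and 3 and 9.72, 9.64 and 9.54 in stimulated ones. SapKO cells read 9.76, 9.79 and 9.59 untreated and 9.85, 9.78 and 9.60 stimulated. ElkKO cells read 9.36, 9.32 and 9.18 untreated and 9.06, 9.36 and 9.08 stimulated. ElkSapKO cells were similar to these, at 9.24, 9.09 and 8.99 untreated and 9.37, 9.25 and 9.0 stimulated. Every array of the 2 genotypes without Elk was therefore below every array of the 2 with it, a separation seen in the lower direction for 0.551% of all probe sets (248 of 45037) and for 1 of the 21. The 4 arrays with Elk that had the high spike-in level, of WT mouse 3 and SapKO mouse 2, read 9.54 to 9.79 and were also above all of those without Elk.

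Per mouse, Grb2 (1449111_a_at) averaged 9.68 ± 0.0852 in WT (SD, n = 3 mice) and 9.16 ± 0.157 in ElkSapKO, a fall of 0.53 on the log2 scale or 1.44-fold (SE 0.107, limma adjusted p = 0.0172). The call was made in each of the 24 fits that left out 1 array, with adjusted p values of 0.00991 to 0.0387. It was called in untreated cells (−0.62, adjusted p = 0.00681) and in stimulated cells (−0.43, adjusted p = 0.0365). Leaving out WT mouse 1 in its untreated state ended the untreated call (adjusted p = 0.0505). The stimulated call was lost without any 1 of 5 stimulated arrays, those of WT mice 1 and 2 and of the 3 ElkSapKO mice (−0.51 to −0.32, adjusted p = 0.0575 to 0.128). The dimmer probe set (1418508_a_at) was at 8.51 ± 0.0937 in WT mice, 8.30 ± 0.184 in SapKO mice, 7.80 ± 0.215 in ElkKO mice and 7.68 ± 0.408 in ElkSapKO mice (SD, n = 3 mice). Its fall in ElkSapKO was 0.84 on the log2 scale (adjusted p = 0.0212), and 1 array departed from the others: the untreated cells of ElkSapKO mouse 2 read 8.67, above 5 of the 6 WT arrays. Without the stimulated array of that mouse the difference was −0.66 with an adjusted p of 0.219.

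Sos1, the exchange factor carried by Grb2, gave different answers by probe set. Its brightest probe set (1434389_at) had per-mouse means of 8.10 ± 0.0942 for WT, 8.10 ± 0.0825 for SapKO, 7.81 ± 0.121 for ElkKO and 7.92 ± 0.111 for ElkSapKO (SD, n = 3 mice), and its ElkSapKO difference of −0.18 was not called (adjusted p = 0.282). The next (1421884_at) read 7.31, 7.35 and 6.80 in untreated WT and 5.96, 5.21 and 6.65 in untreated ElkSapKO. In stimulated cells it read 7.01, 7.22 and 7.16 in WT and 6.29, 6.35 and 6.72 in ElkSapKO. Over mice this probe set fell by 0.95 on the log2 scale, or 1.93-fold (SE 0.193, adjusted p = 0.0172), and by 0.74 (adjusted p = 0.0229) without ElkSapKO mouse 2. Without the stimulated array of that mouse alone the difference was −1.14 with an adjusted p of 0.0686. The third (1421885_at), near background, fell by 0.44 with an adjusted p of 0.0484; this call was lost in 15 of the 24 fits that left out 1 array, with adjusted p values up to 0.302. Sos2, its paralogue, was not called in any comparison. It averaged 7.24 ± 0.286 in WT and 6.90 ± 0.694 in ElkSapKO, where the untreated array of mouse 2 read 5.11 and the other 5 arrays 6.95 to 7.57.

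Rasgrp1, the diacylglycerol-responsive exchange factor, also differed by probe set. The brightest (1434295_at) was nearly level over the 24 arrays. Its per-mouse means were 10.73 ± 0.0131 for WT, 10.76 ± 0.0839 for SapKO, 10.73 ± 0.132 for ElkKO and 10.65 ± 0.217 for ElkSapKO (SD, n = 3 mice), and the ElkSapKO difference was −0.08 with a 95% interval of −0.33 to 0.17. A second, 1421176_at, read 9.76, 9.85 and 9.42 in untreated WT and 8.21, 6.82 and 9.32 in untreated ElkSapKO. In stimulated cells it read 9.70, 9.75 and 8.52 in WT and 8.19, 7.92 and 9.13 in ElkSapKO, and the groups overlapped. Its difference over mice was −1.24 ± 0.366 (adjusted p = 0.0587), and of the ElkSapKO differences from WT only the untreated one, −1.56 ± 0.426, was called (adjusted p = 0.0373). That call was lost in 5 of the 24 fits that left out 1 array, with adjusted p values up to 0.138. Without the untreated array of ElkSapKO mouse 2, which stood apart and gave the reading of 6.82, the difference was −0.91 (adjusted p = 0.136). The probe set 1450143_at tracked it, with a Pearson r of 0.96 over the 24 arrays (both are read from the same RNA), while 1434295_at and 1421176_at had an r of 0.51. The difference of 1450143_at over mice was −1.14 ± 0.363 (adjusted p = 0.0744), and its untreated difference passed the test with mouse as a block (adjusted p = 0.0435 against 0.0512 without). That difference was −1.56, and −0.67 (adjusted p = 0.146) without the same array, which read 6.34.

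Nras (1454060_a_at) averaged 9.23 ± 0.126 in WT mice, 9.18 ± 0.171 in SapKO mice, 8.85 ± 0.139 in ElkKO mice and 8.62 ± 0.166 in ElkSapKO mice (SD, n = 3 mice). The highest ElkSapKO mouse was at 8.79 and the lowest WT mouse at 9.12. The fall in ElkSapKO was 0.61 on the log2 scale, or 1.53-fold (SE 0.124, adjusted p = 0.017), and the call was lost, at an adjusted p of 0.0667, without the stimulated array of mouse 2. The other probe sets did not pass the test over mice, with −0.40 ± 0.13 for 1422688_a_at (adjusted p = 0.0759) and −0.08 ± 0.148 for 1422687_at (adjusted p = 0.773). The first of these, 1422688_a_at, was called in untreated cells alone, where it read 8.46, 8.37 and 8.41 in WT and 8.03, 7.21 and 8.02 in ElkSapKO (difference −0.66, adjusted p = 0.0233). The reading of 7.21 is from the array that stood apart, without which the difference was −0.39 (adjusted p = 0.0668); the call was lost in 4 of the 24 fits that left out 1 array. Whether the untreated and stimulated differences were unequal was tested as the difference of responses, which gave an adjusted p of 0.729.

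Of the GTPase-activating proteins, Rasa1, which binds phosphorylated receptors and adaptors through its SH2 domains, was not called in any of its 3 probe sets. The brightest (1426477_at) averaged 9.48 ± 0.0572 over WT mice, 9.38 ± 0.113 over SapKO mice, 9.54 ± 0.198 over ElkKO mice and 9.67 ± 0.174 over ElkSapKO mice (SD, n = 3 mice), with an ElkSapKO difference of 0.19 and a 95% interval of −0.07 to 0.45. Nf1, which encodes neurofibromin, had 1 probe set that was called (1438067_at). It read 5.57, 5.73 and 5.26 in untreated WT and 5.14, 5.04 and 5.27 in untreated ElkSapKO, which overlapped by 1 array. In stimulated cells it read 5.50, 5.31 and 5.98 in WT and 4.93, 4.97 and 4.50 in ElkSapKO. Over mice it fell by 0.58 on the log2 scale (SE 0.0941, adjusted p = 0.00827), and the call was made in each of the 24 fits without 1 array, with adjusted p values of 0.0029 to 0.0286. Its signal is close to background, where differences of RMA signals are compressed. The 2 other Nf1 probe sets, within the range of Xist, differed by 0.23 (adjusted p = 0.207) and −0.16 (adjusted p = 0.448).

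**Figure D3:**
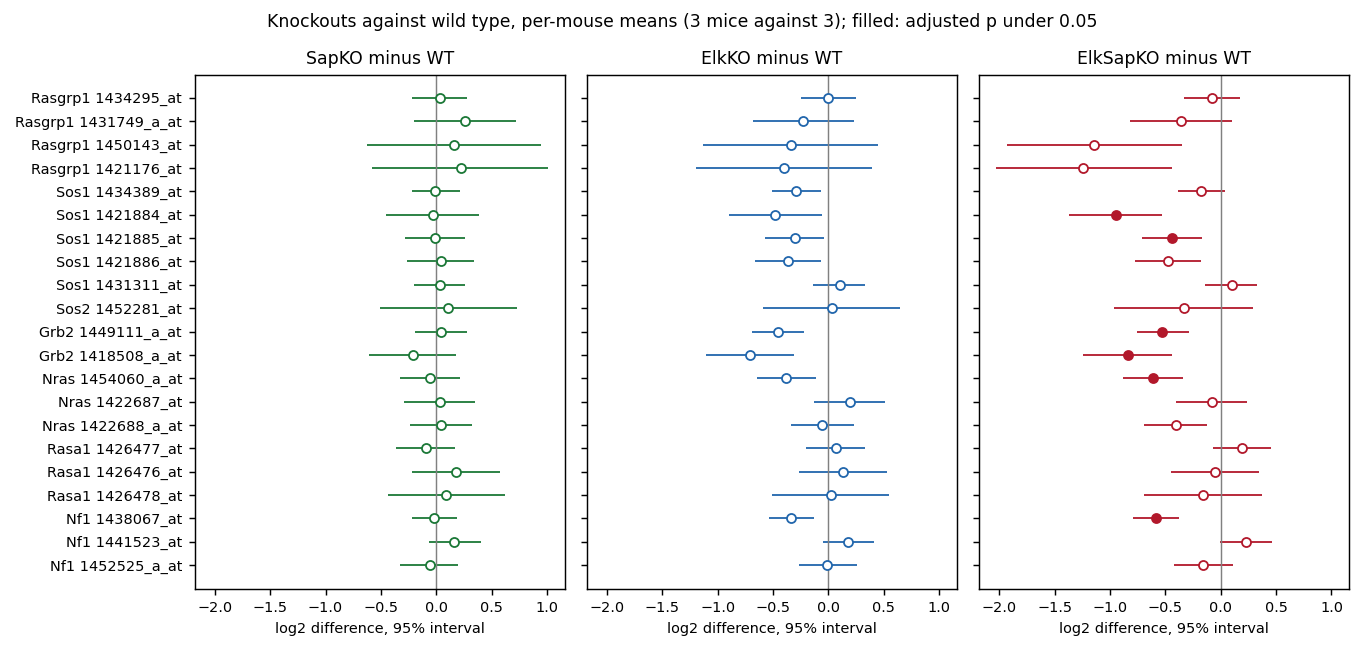
Knockout minus WT log2 differences over per-mouse means (3 mice against 3) for the 21 probe sets, with 95% intervals from limma and filled points where the adjusted p was under 0.05. The SapKO and ElkKO panels have no filled point and the ElkSapKO panel has 6, all to the left of 0, between −0.95 and −0.44; the WT mice are shared by the 3 panels.

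Within states, 5 of 21 probe sets fell in untreated ElkSapKO cells, from Rasgrp1, Sos1, Grb2 and Nras, where 4.16% of all probe sets fell. With mouse as a block 6 did, where 4.54% of all fell. In stimulated cells 4 of 21 fell, from Sos1, Grb2 and Nf1, where 4.28% of all fell. The untreated count changed with single arrays. It was 0 without untreated WT replicate 1 and 2 without untreated WT replicate 2. It was 3 without untreated ElkSapKO replicate 2 and 9 without untreated ElkSapKO replicate 3. The stimulated count was 1 or 2 when any of the stimulated arrays of WT mouse 1 or 2 or of the 3 ElkSapKO mice was left out. Over per-mouse means the count of 6 became 2 without the stimulated array of ElkSapKO mouse 2. It was again 6 without both arrays of that mouse, where 9.9% of all probe sets were called. The shares of all probe sets called in the fits without 1 array are not given here. Whether these changes are particular to the 7 genes therefore cannot be read from the counts.

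The settings of the model mattered for these counts. Over per-mouse means in ElkSapKO, 0 of the 21 were called when only the WT and ElkSapKO mice entered the fit. The count was also 0 with the spike-in level as a covariate and with the Actb 3' minus 5' difference as a covariate. Few probe sets of any gene were called in these fits: 0.107%, 0.271% and 0.00222% of all, in that order. With arrays weighted by quality 7 of the 21 were called, as were 8.66% of all. In these 4 fits the log2 difference of Grb2 (1449111_a_at) was −0.53, −0.51, −0.47 and −0.50, and that of Nf1 (1438067_at) was −0.58, −0.61, −0.54 and −0.57. The Sos1 difference (1421884_at) was −0.95, −0.77, −0.12 and −0.91. Intervals of these values, and the values of the other called probe sets, are not given here. The arrays with and without Elk do not overlap in the Actb difference, so the fit with that covariate cannot tell it apart from the Elk genotype. A value that stayed alike there does not show that a difference is stable.

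After these values were seen, the 6 mice without Elk were set against the 6 with it, the genotypes with and without Sap being balanced in each set. In this comparison 8 of 21 probe sets fell and 0 rose, where 7.6% of all probe sets fell and 3.51% rose. They came from Grb2 (2), Sos1 (3), Rasgrp1, Nras and Nf1 (1 each). Of those of Sos1, 1421886_at lay within the range of Xist and 1421885_at just above it, and the brightest Sos1 probe set, 1434389_at, was not among them. The Nf1 probe set is also close to background. Grb2 (1449111_a_at) fell by 0.51 on the log2 scale, or 1.43-fold (SE 0.0757, limma adjusted p = 0.00333), and Nf1 (1438067_at) by 0.45 (SE 0.0665, adjusted p = 0.00325). Nras (1454060_a_at) fell by 0.47 (adjusted p = 0.00787) and Sos1 (1421884_at) by 0.70 (adjusted p = 0.0091). Without the stimulated array of ElkSapKO mouse 2 the count was 3, in a fit whose share of all probe sets is not given here. The count was 0 with the spike-in level or the Actb difference as a covariate, or with mice of the high spike-in level alone. Of all probe sets 0.182%, 0.0% and 0.0% were called in the fits that gave 0, in that order. Only 2 mice with Elk, WT mouse 3 and SapKO mouse 2, had the high spike-in level.

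The same was done for Sap. Between the 6 mice without Sap and the 6 with it, 0 of 21 probe sets were called by limma, where 0.155% of all were called. At an unadjusted p under 0.05 there were 0 of 21, against 6.29% of all. Between ElkSapKO and ElkKO 0 of 21 were called, where 0.0289% of all were called, and 5 had an unadjusted p under 0.05, all lower in ElkSapKO, against 11.1% of all in either direction. The difference of Grb2 (1449111_a_at) between these 2 genotypes was −0.07, with a 95% interval of −0.30 to 0.16.

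The correlation of signal with the Actb 3' minus 5' difference was not the same in all probe sets. Arrays with and without Elk do not overlap in this difference, so r over all 24 cannot be told apart from the Elk genotype. Over the 24 arrays, which share this measure and the Elk genotype, Pearson's r with it was −0.78 for Grb2 (1449111_a_at), −0.59 for the other Grb2 probe set, −0.80 for Rasgrp1 (1421176_at) and −0.77 for Sos1 (1421884_at). It was −0.16 for Rasgrp1 (1434295_at), 0.54 for Rasa1 (1426477_at) and −0.65 for Nf1 (1438067_at). Within the 12 arrays with Elk and the 12 without it, r was −0.50 and −0.04 for Grb2 (1449111_a_at), −0.66 and −0.65 for Rasgrp1 (1421176_at), and 0.73 and −0.32 for Nf1. For the Sos1 probe sets called in ElkSapKO over mice it was 0.20 and −0.54 (1421884_at) and −0.54 and −0.26 (1421885_at). For the other Grb2 probe set it was 0.70 and −0.002, and for Nras (1454060_a_at) 0.45 and −0.15. Among these, r had the same sign in both sets for Rasgrp1 (1421176_at), Grb2 (1449111_a_at) and Sos1 (1421885_at). For Rasgrp1 1450143_at it was −0.56 and −0.52, for 1431749_a_at −0.53 and −0.43, and for the brightest, 1434295_at, 0.47 and −0.02. In Rasgrp1 (1421176_at) the WT array with the largest Actb difference, 0.36, had the lowest signal of the 12 with Elk, 8.52. Without Elk its lowest signals, 6.82 and 7.92, came from the 2 arrays of ElkSapKO mouse 2, at Actb differences of 0.81 and 1.05. The first of these is the array that stood apart. What lies behind these relations was not tested. With the Actb difference as a covariate the Rasgrp1 (1421176_at) difference without Elk turned from −0.93 to 0.30 (limma adjusted p = 0.849). As the 2 sets of arrays do not overlap in the Actb difference, this fit cannot tell it apart from the Elk genotype.

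**Figure D4:**
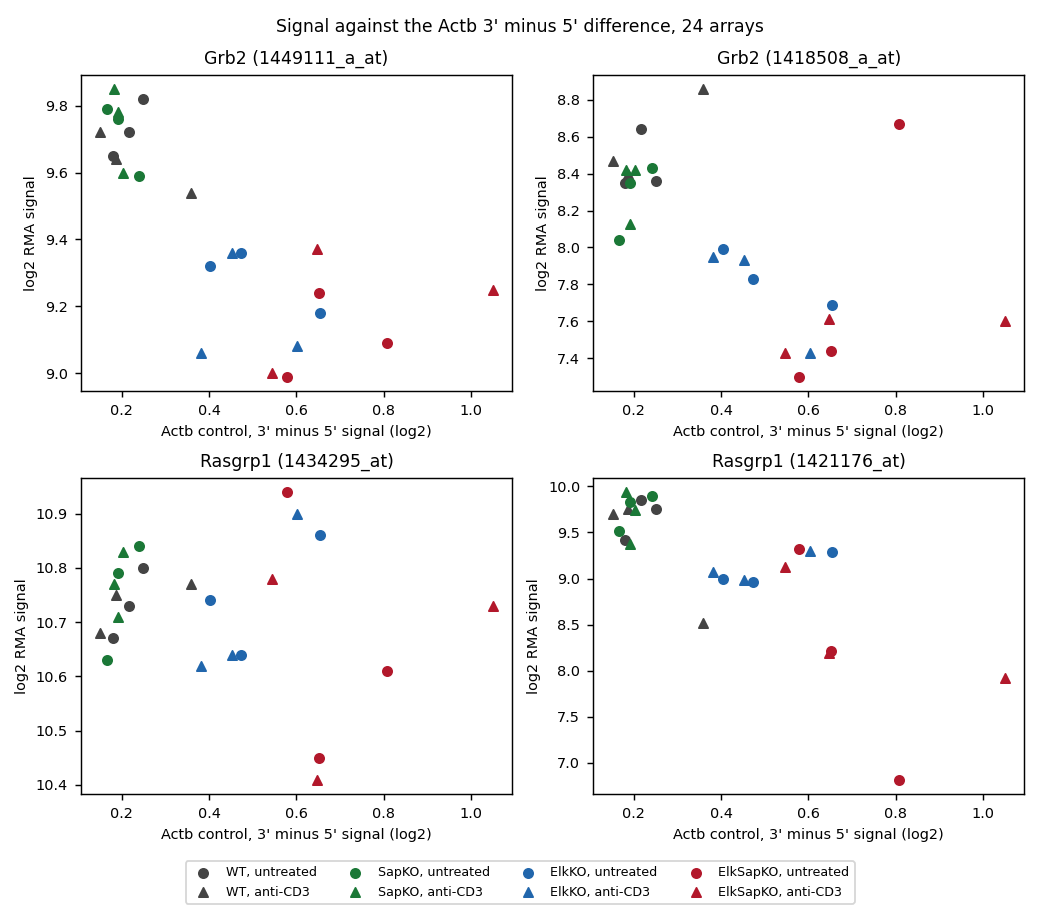
Log2 RMA signal of 2 Grb2 and 2 Rasgrp1 probe sets against the Actb 3' minus 5' difference in log2 units, 1 point per array (24), coloured by genotype, with circles for untreated and triangles for anti-CD3. The arrays without Elk lie at 0.38 to 1.05 on the horizontal axis and those with Elk at 0.15 to 0.36; Grb2 (1449111_a_at) is separate between these sets, and Rasgrp1 (1434295_at) overlaps.

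Probe sets of 1 gene differed in how closely they varied together over the 24 arrays. Pearson's r was 0.68 between the 2 Grb2 probe sets, 0.85 between Rasa1 1426476_at and 1426478_at, and 0.71 between Nras 1454060_a_at and 1422688_a_at. For Sos1 it was 0.65 between the 2 brightest, and −0.10 between 1434389_at and 1421885_at. Among the brightest probe sets of different genes, Sos1 and Nras had the highest r, 0.76, or 0.58 with that untreated ElkSapKO array of mouse 2 left out, and Grb2 and Nf1 had an r of 0.71, or 0.70 without it. Rasa1 ran against Grb2 and Nf1, with r of −0.46 and −0.55. These correlations describe arrays that share libraries and genotypes.

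The genes whose signal was most like each of the 7 were found by Pearson's r over the 24 arrays among 6449 genes, or 6450 for Nf1, with a mean signal of at least 7. For Grb2 they were Trbv13-2, a T cell receptor beta variable segment (r = 0.922), and Lcp1, which encodes the actin-bundling protein L-plastin (0.904). For Nras they were Rnf44 (0.932) and Mark3 (0.921), for Sos1 G2e3 (0.880) and Zkscan1 (0.874), and for Sos2 Kdm5d (0.954) and Usp33 (0.953). For Rasgrp1 they were Trim41 (0.867) and Fnbp1 (0.863), for Rasa1 Hmgn1 (0.859) and Slirp (0.851), and for Nf1 E2f4 (0.846) and Gpr132 (0.838). Several of these values rest in part on the array that stood apart. Without it r fell to 0.822 and 0.813 for the genes named for Sos2, which read 5.11 there, to 0.794 and 0.793 for those of Sos1, and to 0.861 for Mark3. The first genes were then Slc30a9 for Sos2 (0.837), Clasp1 for Sos1 (0.797), Vps53 for Rasgrp1 (0.872) and Ergic2 for Rasa1 (0.854). Lcp1 (0.957) was then first for Grb2, Gpr132 (0.845) for Nf1 and Rnf44 (0.931) for Nras.

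Around the 7 genes, 66 of 72 other genes of the Ras pathway were measured, each by its brightest probe set. By limma, 0 of 66 were called in the averaged response and in SapKO and ElkKO over per-mouse means. Of the brightest probe sets of all genes 0.412%, 0.044% and 0.11% fell there and 1.02%, 0.0605% and 0.033% rose. At an unadjusted p under 0.05 there were 8, 0 and 12 of 66, against 6.98%, 2.29% and 12.2% of those of all genes. In ElkSapKO 13 of 66 fell and 0 rose, and without Elk against with Elk 13 fell and 1 rose. Of the brightest probe sets of all 18193 genes 5.81% and 7.48% fell in these comparisons, and of all probe sets with a mean of at least 5, tested alone, 13.3% and 16.2% fell. Among the relatives of Nras, 1 of 8 Ras-family GTPases was lower in ElkSapKO: Rras2, by 0.61 on the log2 scale (adjusted p = 0.023). Among 18 exchange factors and adaptors, 2 fell, Shc1, an adaptor that binds Grb2 (−0.80, adjusted p = 0.0195), and Grap2, the Grb2-related adaptor that links Lat to Lcp2 (−0.59, adjusted p = 0.0187). The list's median was −0.20, against 0.05 for all probe sets.

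Among 11 GTPase activators and inhibitors, Rasa3 (−0.47, adjusted p = 0.0449) and Spred2, of the Spred family that binds neurofibromin (−0.56, adjusted p = 0.0334), fell in ElkSapKO, and the list's median was 0.00. Among 13 effectors and scaffolds 3 fell: Rassf2 (−1.38, adjusted p = 0.00872), Shoc2, a scaffold that promotes Raf activation (−1.29, adjusted p = 0.0172), and Rassf5 (−0.50, adjusted p = 0.0405). Of the 6 genes of diacylglycerol control, 3 fell, namely the diacylglycerol kinase Dgkq (−1.12, adjusted p = 0.00517) and the protein kinases C Prkcq (−0.53, adjusted p = 0.0212) and Prkcd (−0.67, adjusted p = 0.0382). Map2k1, the gene of MEK1, fell as 1 of 2 measured (−0.48, adjusted p = 0.0451), and Zdhhc9, a Ras palmitoyltransferase, as 1 of 8 processing genes (−0.51, adjusted p = 0.0108). The single gene called as higher, without Elk against with Elk, was the exchange factor Rasgrp3 (0.25, adjusted p = 0.0303), whose mean signal of 3.91 lay within the range of Xist.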

How the data were processed

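The 24 arrays (12 mice, 2 per mouse) were analysed from the deposited log2 signals, which per the submitters' processing notes were made with RMA in the affy package; package versions and probe mapping: not given in the sources used here. RMA quantile normalizes the arrays, so a shift common to all genes is not seen. Of 45101 probe sets 64 were controls. Symbols came from the platform annotation, with 34945 probe sets of 1 symbol, 932 of several and 9160 of none, and 34741 matched a gene identifier of GRCm38.p6; 0 probe sets listed 1 of the 7 genes with another symbol. Promoter sequences are RefSeq's.

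The tests used limma 3.58.1 in R 4.3.3, with 1 mean per group (8 groups of 3 arrays, or 4 groups of 3 mice for per-mouse means), empirical Bayes variances and Benjamini-Hochberg adjustment within each contrast. P values are two-sided and the code was tested on simulated data. Figures used matplotlib 3.10.9 in Python 3.11.15. No 2 arrays were duplicates (highest r 0.9962). The labels' descriptions number the mice, so per the labels untreated and stimulated arrays of a number come from 1 animal; over 12024 probe sets the deviations of such pairs correlated at 0.09 to 0.863, 11 of 12 above 0.1, and 9 of 12 untreated arrays correlated best with their own number. Mice are separate animals, and nothing states separate sorts.

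The 7 genes, the pathway and marker lists and the rule for named genes (all members; up to 4 called genes per list; the 2 most correlated genes per member) were chosen with earlier results of these data known. The without-Elk, without-Sap and ElkSapKO against ElkKO comparisons were added after the values were seen. Alternatives were median centring, a signal minimum of 5, array weights, mouse as a block, only the groups compared, an intensity trend, covariates for spike-in level and the Actb difference, gene-level summaries, leaving out each array and, added later, leaving out ElkSapKO mouse 2 or keeping mice of 1 spike-in level. Pathway and marker genes of the lists that were not measured are not analysed here.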

Additional observations from a re-analysis of the deposited data

Results flagged for a closer look

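Grb2 (1449111_a_at) was lower after anti-CD3 in all 3 WT mice and higher in all 3 ElkSapKO mice. The difference of the 2 responses was 0.19 ± 0.169 (SE) on the log2 scale and did not pass the test of the difference itself in limma (adjusted p = 0.742).

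Rasa1 (1426476_at) was likewise lower after anti-CD3 in all 3 WT mice and higher in all 3 ElkSapKO mice. The difference of the responses was 0.84 ± 0.388 on the log2 scale, with an adjusted p of 0.729 in limma. In ElkSapKO the untreated arrays read 9.57, 7.94 and 9.61, the second of these being the array that stood apart from the rest.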

How the results depend on the processing

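Counts of called probe sets among the 21 depended on the model. When only probe sets with a mean of at least 5 were tested, 6 of 17 were called in untreated and 5 in stimulated ElkSapKO. Of all such probe sets 13.0% and 14.3% were called there. Over per-mouse means 8 of 17 were called in ElkSapKO and 8 without Elk, against 17.0% and 21.6% of all such probe sets. Array weights gave 1 in the averaged response, 4 in untreated and 3 in stimulated ElkKO, 6 in ElkKO over per-mouse means, and 12 in untreated and 8 in stimulated ElkSapKO; the shares of all probe sets called in these weighted fits were 5.42%, 5.13%, 2.23%, 12.1%, 33.8% and 12.7%. With only the groups compared in the fit, the counts were 0 in untreated ElkSapKO, 1 in stimulated ElkSapKO, 1 in ElkKO and 0 in ElkSapKO over per-mouse means. Of all probe sets 0.00666%, 0.546%, 1.16% and 0.107% were called in these fits. With the spike-in level as a covariate the counts were 1 and 1 in untreated and stimulated ElkSapKO and 0 over per-mouse means, in ElkSapKO and without Elk. The shares of all probe sets were 0.822%, 0.984%, 0.271% and 0.182%. With the Actb difference as a covariate all 4 of these counts were 0, where 0.0155%, 0.0511%, 0.00222% and 0.0% of all were called. In that fit Rasgrp1 (1421176_at) without Elk changed sign to 0.30. With mice of the high spike-in level alone, ElkSapKO and the comparison without Elk gave 0; these set 3 mice against 1 and 6 against 2, so the counts say little of stability. Without ElkSapKO mouse 2, a choice made after the data were seen, the counts were 3 in untreated ElkSapKO, 1 in stimulated ElkKO and 1 in ElkKO over per-mouse means. There 5.58%, 1.63% and 1.5% of all probe sets were called. Over genes instead of probe sets, of 7, the brightest probe set gave 2, 2, 3 and 3 and the mean of probe sets 3, 1, 2 and 3, in untreated and stimulated ElkSapKO, ElkSapKO over mice and without Elk. Of all genes 3.44%, 6.83%, 7.9% and 9.99% were called by the brightest probe set. By the mean of probe sets it was 4.53%, 6.45%, 7.82% and 10.3%. Leaving out 1 array gave 0 to 9 in untreated ElkSapKO, 1 to 6 in stimulated ElkSapKO and 2 to 9 in ElkSapKO over mice. It gave 3 to 10 without Elk, 0 to 2 in stimulated ElkKO and 0 to 1 in ElkKO over mice. The shares of all probe sets called in these fits are not given here, so the ranges are not particular to the 7 genes. The replicate block, mouse as a pair, gave 6 in place of 5 in untreated ElkSapKO by adding Rasgrp1 (1450143_at), and changed no other call. Of the differences of single probe sets under the alternatives other than leaving out 1 array, 949 kept their direction and side of the threshold or moved little, 80 lost the call, 43 gained one, 51 moved further and 1 reversed. The causes of these changes were not tested. Signals near background limit what could be seen in 3 Sos1 probe sets and in all 3 of Nf1, among them 2 of the 6 called in ElkSapKO over mice.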
